A study of Rattus norvegicus with 24 samples.

Results

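Day 7 and day 3 of a culture model of the neonatal rat testis were compared, to follow which genes went on changing after the first days in vitro. The study sequenced 24 messenger RNA libraries in a baseline and a hormone induction experiment, and the comparison used 6 of them. The day 7 libraries were the samples named D1_A4_Day7, D2_A4_Day7 and D3_A4_Day7, and the day 3 libraries were D1_A2_Day3, D3_A2_Day3 and D4_A2_Day3. They are called replicates 1, 2 and 3 of each day, in the order of the labels. Both groups came from wild-type Sprague Dawley rats at post-natal day 5 and were untreated controls, to which no hormone was added. The complete testis cell mixture was used, with no cell type enriched or depleted. Cells were seeded at 5 M cells per mL with 4.5 mg/mL matrigel, a gel of basement membrane proteins, in serum-free medium of which 50% was replaced every 24 h. All 6 cultures came from 1 litter and were technical replicates, so each p-value measured technical spread and not variation between animals. Day 5 cultures and the freshly isolated tissue of the same litter, with 3 libraries each, served only to place the levels.

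The neonatal testis holds seminiferous cords of Sertoli cells and germ cells, wrapped by contractile peritubular myoid cells and a basement membrane. Leydig cells, fibroblast-like stroma, vessels and macrophages lie between the cords. Stromal and myoid cells secrete fibrillar collagens and the elastic fibre proteins, which are crosslinked outside the cell. At this age Sertoli cells still divide and secrete anti-Müllerian hormone, encoded by Amh.

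Expression was measured in CPM, a count scale in which each library's reads were scaled to the same total. The libraries held 17.4 to 23.1 M reads at day 7 and 18.9 to 27.1 M reads at day 3, so that 1 read was worth 0.0368 to 0.0574 CPM. A gene at 0 could have up to 3 reads, or 0.111 to 0.172 CPM, by counting error alone. Of 21425 genes, 12348 reached 1 CPM in at least 3 of the 6 libraries and were tested. At the edge of that filter, Fabp4 lay just inside, with a third-highest value of 1.00 CPM, and Gabra4 just outside, with 0.997 CPM. Differences are log2 fold changes of day 7 over day 3 on log2(CPM + 1), with the SE and an adjusted p from limma over all genes tested, and a gene was called when the adjusted p was below 0.05. Such a fold change understates the change of genes near 1 CPM.

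The first principal component of the 6 libraries held 39.5% of the variance and separated the days, with day 7 libraries at 11.1, 13.2 and 25.5 and day 3 libraries at -17.6, -11.2 and -20.99. On that component day 7 replicate 3 stood apart from the other day 7 libraries. On the second, with 27.3% of the variance, day 7 replicate 3 lay between them, with replicates 1, 2 and 3 at 15.6, -11.4 and 2.34. There day 3 replicate 3 stood apart, at 20.7, from day 3 replicates 1 and 2 at -7.18 and -20.1. Day 7 replicate 3 lay farthest from day 3 in 69 of the 120 genes called higher and in 109 of the 197 called lower. Day 3 replicate 3 had 10334 CPM of mitochondrially encoded messenger RNA, where the range over all 6 libraries was 10334 to 23280 CPM. Sox9 and Amh of Sertoli cells, Star of Leydig cells and Dazl of germ cells were detected in all 6 libraries, as the testis label implies. Results that rest on single libraries are given with the value found without them, except for genes chosen after their values were seen. Leaving out a library also leaves fewer libraries to estimate the spread. A lost call alone therefore does not show that a result rests on that library. The bulk libraries cannot tell fewer cells of a type from less RNA per cell.

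By day 7, 120 genes were higher and 197 lower than at day 3, which was 0.972% and 1.6% of the genes tested, or 2.57% in both directions. All 317 called genes had groups that did not overlap. The higher genes had a median log2 fold change of 0.96, and 55 of them changed at least 2-fold. The lower genes had a median of -0.78, and 47 changed at least 2-fold. The median over all genes tested was -0.06. Among all genes tested, 795 (6.44%) were higher without overlap between the days and 1755 (14.2%) were lower without overlap. The balance of directions depended on the scaling: after rescaling the libraries by TMM, the calls were 132 higher and 120 lower. Without 1 library the calls were 36 higher and 25 lower when day 7 replicate 1 was left out, 61 and 104 without day 7 replicate 2, and 24 and 11 without day 7 replicate 3. They were 19 and 8 without day 3 replicate 1, 56 and 60 without day 3 replicate 2, and 132 and 166 without day 3 replicate 3. Calls were fewest without day 3 replicate 1 or day 7 replicate 3.

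Genes of the extracellular matrix were prominent among those that rose. Over 6 lists of matrix genes, 17 of 109 tested members (15.6%) were called higher and 4 were called lower, against 0.972% and 1.6% of all genes tested, with a median log2 fold change of 0.35. They made up 14.2% of all genes called higher. The lists covered fibrillar collagens, elastic fibres, the basement membrane, matricellular proteins, proteoglycans and matrix proteases with their inhibitors. Like all lists used here, they were chosen with earlier results of these data known. The contrast with all genes tested is therefore a description and no test.

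Among 21 elastic fibre and crosslinking genes, 5 rose, and the list's median was 0.38. Eln encodes elastin, the recoil protein of elastic fibres. It had 1343, 1281 and 2136 CPM in the day 7 libraries, against 164, 251.5 and 445 CPM in the day 3 libraries. Replicate 3 was the highest library on both days, and the lowest day 7 library lay above every day 3 library. The log2 fold change was 2.54 ± 0.33 (adjusted p = 0.0129), with the call lost without day 7 replicate 3 (adjusted p = 0.0537). Adamtsl2, a secreted protein that binds fibrillin microfibrils and latent TGF-beta complexes and is not a member of the list, had 34.7, 47.1 and 66.9 CPM at day 7 and 1.06, 3.76 and 8.78 CPM at day 3. The libraries of each day spread widely, by several-fold at day 3, but did not meet. Its log2 fold change of 3.42 ± 0.49 (adjusted p = 0.0171) was the largest rise among the named genes. The call was lost without day 7 replicate 1 or 3 (adjusted p up to 0.0786). Ltbp1, which ties latent TGF-beta to the matrix, had 156, 201 and 293 CPM at day 7 and 42.0, 68.1 and 52.4 CPM at day 3. That was a log2 fold change of 1.96 ± 0.24 (adjusted p = 0.00808), and the call held without each single library (adjusted p up to 0.0433).

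The other called members rose less. Fbln5, a fibulin needed for elastic fibre assembly, averaged 143 ± 53.3 CPM at day 7 and 59.6 ± 11.8 CPM at day 3 (SD, n = 3 each). Mfap2, a microfibril protein, averaged 127 ± 18.5 CPM at day 7 and 65.8 ± 16.1 CPM at day 3. Their log2 fold changes were 1.20 ± 0.24 (adjusted p = 0.0381) and 0.95 ± 0.17 (adjusted p = 0.0345). Both calls were lost without any 1 of the day 7 libraries or without day 3 replicate 1 or 2. The fifth called member was Ltbp4, a latent TGF-beta binding protein of elastic fibres named after its values were seen. Ltbp4 averaged 1853 ± 241 CPM at day 7 and 1092 ± 56.8 CPM at day 3 (0.76 ± 0.12, adjusted p = 0.0248). No value without single libraries is given for Ltbp4. The number of elastic fibre genes called higher was 2, 2 and 1 without day 7 replicates 1, 2 and 3, and 2, 3 and 6 without day 3 replicates 1, 2 and 3. The summed level of the list was 9123 to 11761 CPM in the day 7 libraries and 5937 to 6884 CPM in the day 3 libraries, so the groups did not overlap.

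**Figure D1:**
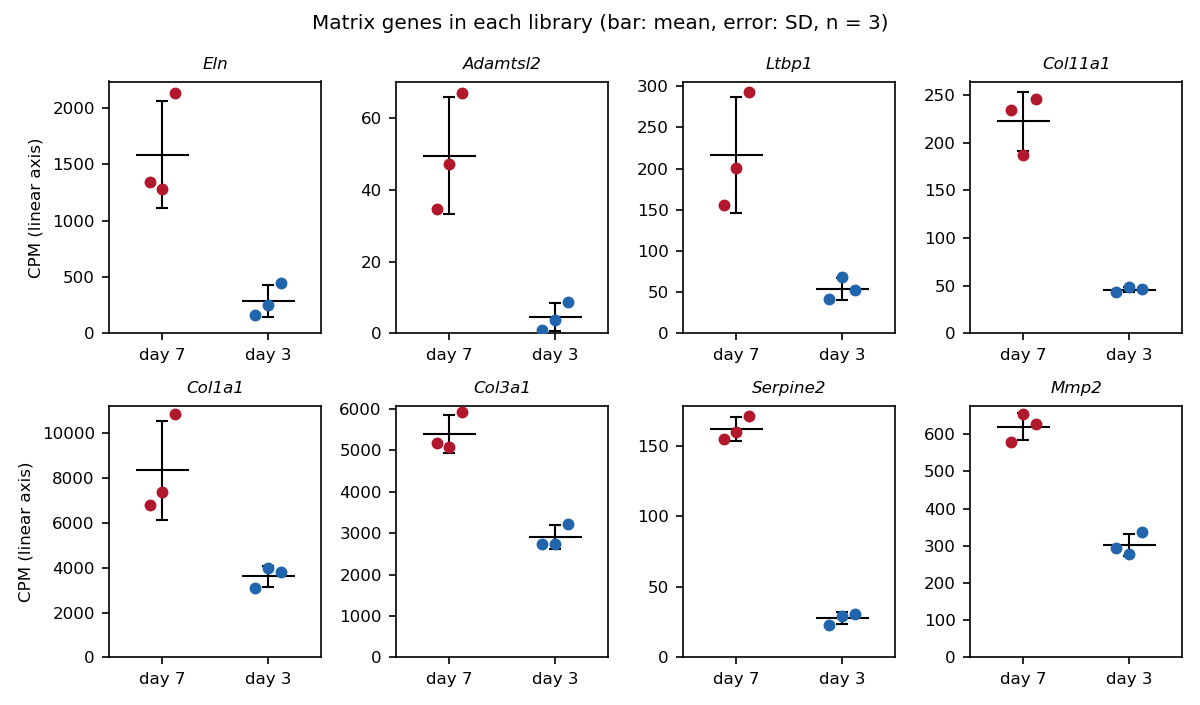
Level of 8 matrix genes in CPM on linear axes, with 1 point per library, the mean as a bar and the SD as error (n = 3 per day). In each panel all 3 day 7 points lie above the 3 day 3 points, and day 7 replicate 3 is the highest point for Eln, Adamtsl2, Ltbp1, Col11a1, Col1a1, Col3a1 and Serpine2.

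Of the 11 fibrillar collagen genes, 5 rose, with a median of 0.43. Col11a1 encodes a minor fibrillar collagen that nucleates thin fibrils. It had 234, 187 and 246 CPM at day 7 and 43.1, 48.6 and 46.2 CPM at day 3. The day 3 libraries were tightly grouped and the lowest day 7 library was well above them. The log2 fold change was 2.24 ± 0.12 (adjusted p = 6.94e-05), and the adjusted p did not exceed 0.00233 without any single library. Col1a1 and Col1a2 encode the chains of type I collagen, the main tensile collagen of stroma. Col1a1 had 6792, 7389 and 10851 CPM at day 7 and 3089.9, 3985 and 3799 CPM at day 3, a log2 fold change of 1.18 ± 0.20 (adjusted p = 0.0275). Col1a2 had 2471, 1432 and 1791 CPM at day 7 and 1041, 658 and 974 CPM at day 3, a log2 fold change of 1.08 ± 0.23 (adjusted p = 0.0457). Col3a1, which forms mixed fibrils with type I collagen, had 5179.5, 5072 and 5915 CPM at day 7 and 2732, 2749 and 3230.2 CPM at day 3, a log2 fold change of 0.89 ± 0.13 (adjusted p = 0.0193). The 3 genes were each higher in every day 7 library than in any day 3 library, but their calls were lost without some single libraries: day 7 replicate 1 or 3 or day 3 replicate 1 for all 3, day 7 replicate 2 for Col1a1, and day 3 replicate 2 for Col1a2 and Col3a1 (adjusted p up to 0.151). Fibrillar collagen genes called higher numbered 1, 4 and 1 without day 7 replicates 1, 2 and 3, and 1, 2 and 5 without day 3 replicates 1, 2 and 3. The summed level of the list was 15561 to 20705 CPM at day 7 and 8087 to 9306 CPM at day 3.

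The basement membrane list held 22 tested genes, of which 3 rose, with a median of 0.27. The 3 were chains of type IV collagen, the network-forming collagen of basement membranes. Col4a6 had 28.3, 39.9 and 45.2 CPM at day 7 and 17.4, 17.5 and 20.7 CPM at day 3 (log2 fold change 0.97 ± 0.18, adjusted p = 0.0339). Col4a4 averaged 701 ± 174 CPM at day 7 and 388 ± 52.99 CPM at day 3 (SD, n = 3 each). Col4a5 averaged 639 ± 46.2 CPM at day 7 and 428 ± 12.6 CPM at day 3. Each was higher in all day 7 libraries than in any day 3 library. All 3 calls were lost without day 7 replicate 2 or 3 or day 3 replicate 1 or 2, those of Col4a4 and Col4a5 also without day 7 replicate 1, and that of Col4a4 also without day 3 replicate 3 (adjusted p up to 0.192). Basement membrane genes called higher numbered 1, 0 and 0 without day 7 replicates 1, 2 and 3, and 0, 0 and 2 without day 3 replicates 1, 2 and 3.

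Of 18 matricellular genes 1 was called higher and 1 lower, but 15 had a positive log2 fold change, and the median was 0.44. Their summed level was 7399 to 10458 CPM at day 7 and 6533 to 6567 CPM at day 3. Of 15 proteoglycans 10 had a positive log2 fold change, and the 2 that were called were lower. Ccn3, a secreted regulator of adhesion and growth, had 13.2, 17.2 and 27.9 CPM at day 7 and 5.21, 5.67 and 4.97 CPM at day 3. It was called higher at 1.64 ± 0.24 (adjusted p = 0.0187), and the call was lost without day 3 replicate 1 (adjusted p = 0.109). Tgfbi, an adhesion protein induced by TGF-beta in many cells, went the other way, with 19.2, 19.9 and 17.7 CPM at day 7 and 46.0, 52.3 and 49.2 CPM at day 3. Both groups were tight and far apart. Tgfbi fell by 1.33 ± 0.11 on the log2 scale (adjusted p = 0.00211), and the adjusted p was at most 0.0140 without any single library. The small leucine-rich proteoglycans Lum and Dcn, which bind and space collagen fibrils, were lower at day 7. Lum averaged 13.4 ± 3.65 CPM at day 7 and 28.2 ± 4.07 CPM at day 3 (log2 fold change -1.04 ± 0.19, adjusted p = 0.0345). Dcn averaged 136 ± 19.4 CPM at day 7 and 198 ± 15.7 CPM at day 3 (log2 fold change -0.55 ± 0.12, adjusted p = 0.0494). The median of the proteoglycans was 0.39, and DESeq2 called 6 of them higher and 2 lower. Both calls were lost without day 7 replicate 1 or 3 or day 3 replicate 1 or 2, and that of Dcn also without day 3 replicate 3 (adjusted p up to 0.218).

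Of 22 matrix proteases and inhibitors, 3 rose and 1 fell, with a median of 0.20. Serpine2, protease nexin-1, is an inhibitor of thrombin and plasminogen activators. It had 155, 160.0 and 171 CPM at day 7 and 23.3, 29.7 and 30.7 CPM at day 3. The log2 fold change of 2.50 ± 0.12 (adjusted p = 5.94e-05) stood far outside the spread of either day, and the adjusted p was at most 0.00169 without any single library. Mmp2, a gelatinase that cleaves type IV collagen, had 580.0, 653 and 629 CPM at day 7 and 294, 278 and 336 CPM at day 3, a log2 fold change of 1.04 ± 0.10 (adjusted p = 0.00300). Its call also held without each single library (adjusted p up to 0.0322). Timp3, a matrix-bound metalloprotease inhibitor, averaged 247 ± 49.9 CPM at day 7 and 134 ± 9.53 CPM at day 3, a log2 fold change of 0.86 ± 0.15 (adjusted p = 0.0310). That call was lost without day 7 replicate 2 or 3 or day 3 replicate 1 (adjusted p up to 0.154). Adam12, a membrane metalloprotease of mesenchymal cells, had 5.79, 5.94 and 5.58 CPM at day 7 and 20.3, 16.1 and 16.8 CPM at day 3. It fell by 1.46 ± 0.15 (adjusted p = 0.00300), and without any single library the adjusted p stayed at or below 0.0292. Itga11, a collagen-binding integrin subunit, was the 1 called gene of 18 integrins, with 128 ± 24.4 CPM at day 7 and 60.3 ± 5.35 CPM at day 3 (log2 fold change 1.07 ± 0.14, adjusted p = 0.0133, and 0.0863 without day 3 replicate 1).

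**Figure D2:**
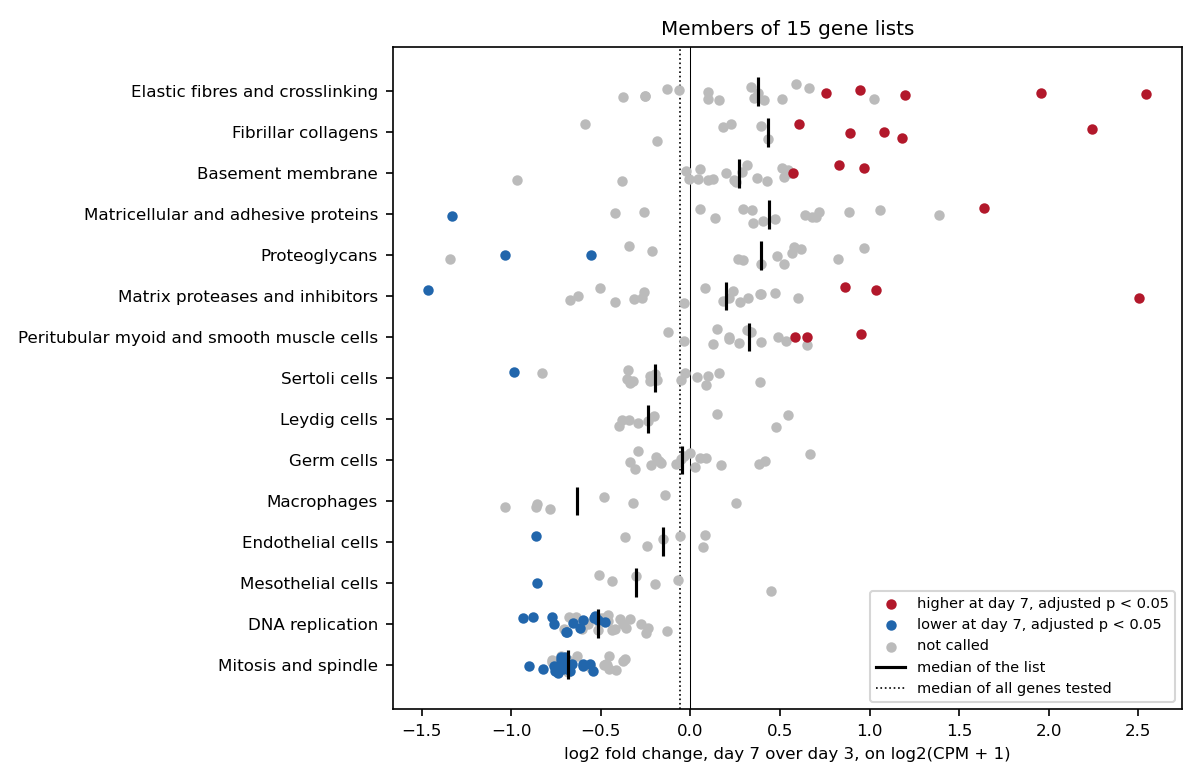
Log2 fold change of day 7 over day 3 for the tested members of 15 gene lists, with 1 point per gene, red for called higher, blue for called lower and grey for not called. The matrix lists have medians to the right of the median of all genes (-0.06), whereas every member of the DNA replication and mitosis lists lies to the left of 0.

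Genes of the cell cycle fell together. All 36 tested DNA replication genes had a lower mean log2 level at day 7 than at day 3, and 13 of them were called lower, with a median of -0.52. All 35 tested genes of mitosis and the spindle were also lower, and 18 were called, with a median of -0.68. The groups did not overlap for 33 of the 36 and for 31 of the 35, where 14.2% of all genes tested were lower without overlap. These 31 called genes were 43.7% of both lists and 15.7% of all genes called lower. All 71 members kept a negative sign in each of 19 alternative settings, rescaling included. The number called did not hold: DNA replication genes called lower were 2, 9 and 0 without day 7 replicates 1, 2 and 3, and 0, 7 and 11 without day 3 replicates 1, 2 and 3. Mitosis genes called lower were 0, 15 and 0 without the day 7 replicates and 0, 7 and 15 without the day 3 replicates, in the same order.

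Rrm2, the small subunit of ribonucleotide reductase that makes deoxynucleotides, had 21.6, 23.6 and 19.5 CPM at day 7 and 42.5, 38.2 and 45.6 CPM at day 3. Day 7 replicate 3 was the lowest library and day 3 replicate 3 the highest. The log2 fold change was -0.93 ± 0.12 (adjusted p = 0.0133). Mcm5, a subunit of the replicative helicase, had 72.2, 71.2 and 59.8 CPM at day 7 and 115, 105 and 125 CPM at day 3, a log2 fold change of -0.76 ± 0.11 (adjusted p = 0.0187). Cdc6, which loads that helicase at origins, averaged 10.5 ± 1.23 CPM at day 7 and 18.6 ± 1.81 CPM at day 3 (adjusted p = 0.0347). Mcm10, which helps the helicase start, averaged 17.2 ± 4.01 CPM at day 7 and 32.0 ± 1.88 CPM at day 3 (adjusted p = 0.0347). Among the mitotic genes, Kif2c, a kinesin that shortens microtubules at centromeres, had 20.0, 20.0 and 15.4 CPM at day 7 and 35.3, 32.1 and 37.9 CPM at day 3, a log2 fold change of -0.90 ± 0.14 (adjusted p = 0.0228). Plk1, a kinase needed for spindle assembly, had 35.5, 37.4 and 32.3 CPM at day 7 and 58.2, 56.1 and 66.2 CPM at day 3, a log2 fold change of -0.76 ± 0.11 (adjusted p = 0.0187). Ube2c, the ubiquitin-conjugating partner of the anaphase-promoting complex, averaged 24.2 ± 4.16 CPM at day 7 and 43.2 ± 3.04 CPM at day 3 (adjusted p = 0.0275). For all 7 genes every day 7 library lay below every day 3 library. Each lost its call without day 7 replicate 3 or day 3 replicate 1, all but Rrm2 also without day 7 replicate 1, Mcm10 and Cdc6 also without day 3 replicate 2, and Cdc6 also without the other two libraries (adjusted p up to 0.170). Mki67, the Ki-67 proliferation marker, was not called, with 121.9, 157 and 113 CPM at day 7 and 203, 220.2 and 106 CPM at day 3 (adjusted p = 0.591). Day 3 replicate 3, the library with the low mitochondrial share, was the lowest of the 6, and the groups overlapped through it alone. Without that library Mki67 was called lower, with a log2 fold change of -0.71 (adjusted p = 0.0362), against -0.38 with all 6.

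**Figure D3:**
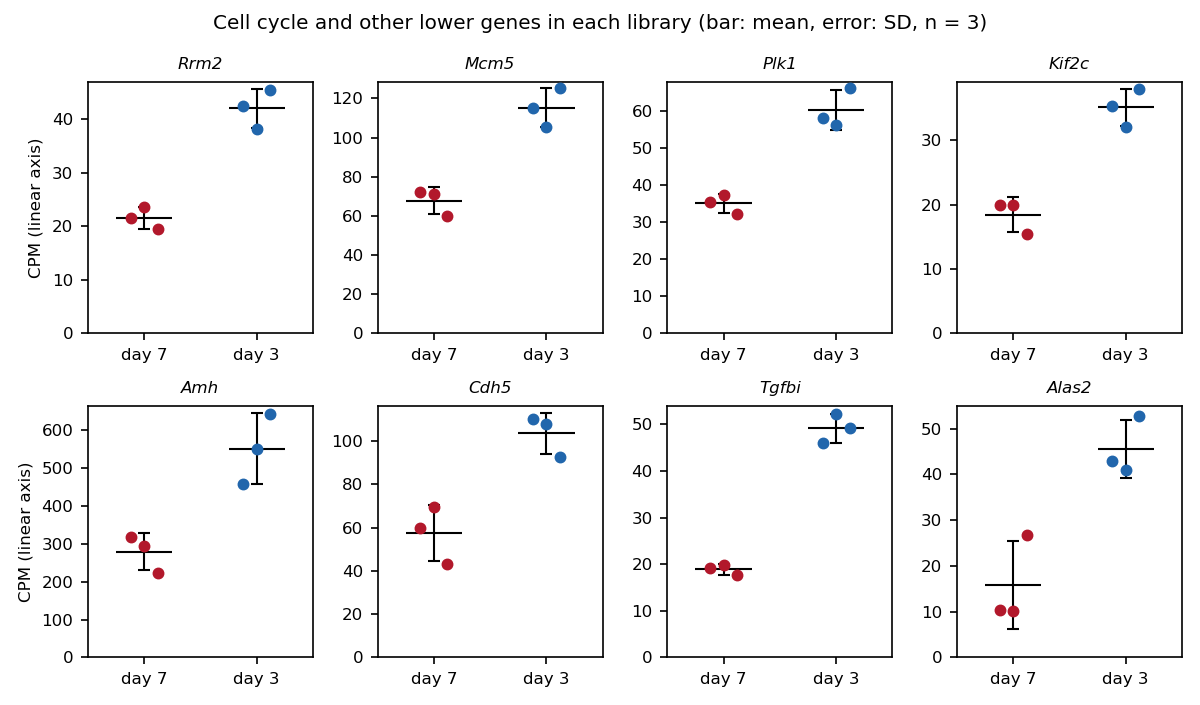
Level in CPM on linear axes of 8 genes called lower at day 7, with 1 point per library, the mean as a bar and the SD as error (n = 3 per day). In each panel all 3 day 7 points lie below the 3 day 3 points, and Alas2 at day 7 has 1 library well above the other pair.

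The promoters of both cell cycle lists were searched for elements that such genes are known to share. In mammals, replication genes often carry E2F sites, and genes expressed late in the cell cycle often carry a CHR element with CCAAT boxes. Windows of 250 bases before to 50 after the annotated start, from RefSeq on build GRCr8, were searched on both strands. The CHR letters were TTTGAA or TTCGAA, and the E2F letters were TTTCCCGC, TTTCGCGC, TTTGCCGC or TTTGGCGC. A CHR match lay in 22 of the 29 tested mitosis genes with a window (75.9%). Such a match lay in 1386 of 9734 tested genes with a window (14.2%) and in 5754 of all 27457 genes with a window. A CHR match lay in 10 of the 14 called mitosis genes with a window and in 5 of the 30 replication genes. An E2F match lay in 14 of the 30 replication genes (46.7%), against 4.21% of the tested genes and 2.37% of all genes with a window. It lay in 5 of the 10 called replication genes and in 1 of the 29 mitosis genes. CCAAT was found in 23 of the 29 mitosis genes and 19 of the 30 replication genes, against 39.4% of the tested genes. Among the called genes that have only 1 window each and hold such a match, those with the largest falls are shown. Their windows have the elements in capitals, CHR in the first 3 and E2F in the last 2. They lie at chr1:186147408-186147707 on the plus strand for Plk1, chr10:13783620-13783919 on the minus strand for Ccnf, which encodes cyclin F, chr2:111966577-111966876 on the minus strand for Ect2, a cytokinesis factor, chr19:13488563-13488862 on the plus strand for Mcm5 and chr9:30733697-30733996 on the minus strand for Mcm3, another helicase subunit.
Plk1: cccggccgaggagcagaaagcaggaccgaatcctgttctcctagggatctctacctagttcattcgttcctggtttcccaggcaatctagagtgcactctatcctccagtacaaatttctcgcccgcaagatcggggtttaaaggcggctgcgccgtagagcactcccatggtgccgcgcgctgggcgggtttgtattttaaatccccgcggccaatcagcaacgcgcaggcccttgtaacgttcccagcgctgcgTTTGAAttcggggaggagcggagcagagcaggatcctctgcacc
Ccnf: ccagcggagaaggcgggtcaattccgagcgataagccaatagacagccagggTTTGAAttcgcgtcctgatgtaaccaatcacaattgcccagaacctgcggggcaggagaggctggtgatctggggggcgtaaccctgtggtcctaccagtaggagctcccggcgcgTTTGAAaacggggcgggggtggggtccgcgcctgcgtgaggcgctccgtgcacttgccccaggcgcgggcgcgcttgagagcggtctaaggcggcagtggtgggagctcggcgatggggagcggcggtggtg
Ect2: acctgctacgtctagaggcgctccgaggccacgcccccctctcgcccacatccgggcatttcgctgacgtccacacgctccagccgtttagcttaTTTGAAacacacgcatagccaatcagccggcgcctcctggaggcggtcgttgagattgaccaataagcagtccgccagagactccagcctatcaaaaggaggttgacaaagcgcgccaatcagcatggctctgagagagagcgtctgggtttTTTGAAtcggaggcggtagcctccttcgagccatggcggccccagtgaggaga
Mcm5: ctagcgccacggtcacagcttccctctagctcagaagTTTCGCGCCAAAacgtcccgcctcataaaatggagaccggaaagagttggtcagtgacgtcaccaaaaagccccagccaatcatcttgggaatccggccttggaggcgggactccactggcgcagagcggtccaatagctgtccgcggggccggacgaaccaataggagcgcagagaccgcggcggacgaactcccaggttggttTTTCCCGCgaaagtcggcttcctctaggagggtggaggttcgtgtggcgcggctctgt
Mcm3: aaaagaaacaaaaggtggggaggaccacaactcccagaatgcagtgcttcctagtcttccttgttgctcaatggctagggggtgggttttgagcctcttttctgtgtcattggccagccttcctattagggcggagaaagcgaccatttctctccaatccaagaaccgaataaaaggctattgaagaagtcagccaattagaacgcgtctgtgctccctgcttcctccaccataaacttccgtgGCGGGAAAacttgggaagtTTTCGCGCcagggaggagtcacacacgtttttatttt
The first capital run of Mcm5 joins a pair of overlapping E2F matches on opposite strands. A match is a description of the letters in the window, and no binding was measured.

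Contractile and stromal genes rose in part. Of 16 tested genes of peritubular myoid and smooth muscle cells, 3 were called higher, 14 had a positive log2 fold change, and the median was 0.33. Myh11, smooth muscle myosin heavy chain, had 641, 881 and 717 CPM at day 7 and 394, 459 and 306 CPM at day 3, a log2 fold change of 0.95 ± 0.17 (adjusted p = 0.0313). Lmod1, an actin filament nucleator of smooth muscle, averaged 89.5 ± 5.48 CPM at day 7 and 57.3 ± 11.2 CPM at day 3 (adjusted p = 0.0469). Synm, an intermediate filament protein of muscle, averaged 121.4 ± 2.62 CPM at day 7 and 80.8 ± 7.22 CPM at day 3 (adjusted p = 0.0267). The groups of the 3 genes did not overlap. Acta2, smooth muscle actin, was not called, with 1822, 1797 and 2140.2 CPM at day 7 and 1387, 1528 and 1714 CPM at day 3 (adjusted p = 0.275). The summed level of the list was 9388 to 10280.0 CPM at day 7 and 7256 to 8532 CPM at day 3. Of the 3 calls, all were lost without any 1 of the day 7 libraries or day 3 replicate 1, and those of Lmod1 and Synm also without day 3 replicate 2 (adjusted p up to 0.207). Myoid genes called higher numbered 0 without any 1 of the day 7 libraries, and 0, 1 and 5 without day 3 replicates 1, 2 and 3. Among stromal progenitor and pericyte genes, Tcf21, a transcription factor of mesenchymal progenitors, rose, averaging 80.9 ± 5.10 CPM at day 7 and 53.6 ± 8.42 CPM at day 3 (adjusted p = 0.0464). Its call was lost without any 1 of the day 7 libraries and without day 3 replicate 1 or 2 (adjusted p up to 0.207).

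Single genes of the growth factor and signalling lists were called. Igf1, insulin-like growth factor 1, had 85.7, 115 and 107 CPM at day 7 and 24.6, 35.5 and 34.0 CPM at day 3. It was the 1 called gene of 17 in the insulin-like growth factor system, at 1.69 ± 0.16 (adjusted p = 0.00300, at most 0.0216 without any single library). In the Wnt list 4 of 25 genes rose, and 3 of the 4 encode antagonists. Frzb, a secreted frizzled-related antagonist, had 17.8, 24.9 and 66.7 CPM at day 7 and 3.43, 6.93 and 7.40 CPM at day 3, so that day 7 replicate 3 was far above the other day 7 libraries. Its log2 fold change was 2.27 ± 0.44 (adjusted p = 0.0370). Sfrp1, of the same family, had 41.7, 35.7 and 54.8 CPM at day 7 and 16.2, 21.3 and 14.4 CPM at day 3 (1.30 ± 0.19, adjusted p = 0.0187). Nkd1, an intracellular antagonist, averaged 17.9 ± 1.81 CPM at day 7 and 11.1 ± 0.884 CPM at day 3 (adjusted p = 0.0493). Dkk2, a secreted modulator of the Wnt co-receptors, averaged 19.7 ± 2.36 CPM at day 7 and 11.2 ± 1.95 CPM at day 3 (adjusted p = 0.0466). All 4 calls were lost without day 7 replicate 1 or 3 or day 3 replicate 1, and all but that of Sfrp1 also without day 7 replicate 2 or day 3 replicate 2 (adjusted p up to 0.215). Dkk2 and Nkd1 were also lost without day 3 replicate 3. Wnt genes called higher numbered 0, 2 and 0 without day 7 replicates 1, 2 and 3, and 0, 1 and 2 without the day 3 replicates in that order.

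Other receptors and ligands were called singly. Fgfr2, a fibroblast growth factor receptor, averaged 146 ± 31.9 CPM at day 7 and 76.2 ± 13.8 CPM at day 3, and Pdgfc, a platelet-derived growth factor, averaged 62.4 ± 4.78 CPM at day 7 and 43.7 ± 2.70 CPM at day 3. They were the 2 called genes of 23 in that list (adjusted p = 0.0347 and 0.0457). Gli2, a transcription factor of the hedgehog pathway, averaged 29.1 ± 3.03 CPM at day 7 and 14.9 ± 2.26 CPM at day 3 (adjusted p = 0.0240), the 1 called gene of 11. In the BMP and TGF-beta list, Id2, a BMP-induced inhibitor of helix-loop-helix factors, averaged 14.5 ± 4.23 CPM at day 7 and 5.01 ± 0.876 CPM at day 3 (adjusted p = 0.0271). Bmpr1b, a BMP receptor, averaged 4.37 ± 0.918 CPM at day 7 and 1.62 ± 0.413 CPM at day 3 (adjusted p = 0.0413). They were the 2 called genes of 25, of which 20 had a positive log2 fold change. The list's median of 0.16 was positive in all 19 alternative settings. All 5 calls were lost without day 7 replicate 2 or 3 or day 3 replicate 1, and some also without the other libraries (adjusted p up to 0.215).

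The genes with the largest rises outside the lists are described singly, and a common role was not tested. Sytl2, a membrane trafficking protein, had 13.1, 13.5 and 12.3 CPM at day 7 and 0.755, 0.553 and 0.899 CPM at day 3 (log2 fold change 3.01 ± 0.16, adjusted p = 6.94e-05). At day 5 the libraries averaged 6.49 ± 9.19 CPM, so that day was split between replicates. Itih5, of the inter-alpha-trypsin inhibitor heavy chain family, had 20.4, 34.7 and 26.2 CPM at day 7 and 2.45, 4.38 and 4.86 CPM at day 3 (2.53 ± 0.25, adjusted p = 0.00300). Pcdh20, a protocadherin, averaged 6.44 ± 0.660 CPM at day 7 and 0.888 ± 0.185 CPM at day 3. Dner, a Notch-binding transmembrane protein, averaged 70.3 ± 25.3 CPM at day 7 and 17.6 ± 2.35 CPM at day 3. Rai2 averaged 18.1 ± 4.31 CPM at day 7 and 3.97 ± 1.39 CPM at day 3. Their log2 fold changes were 1.98 ± 0.18, 1.89 ± 0.23 and 1.96 ± 0.23, and the calls of these 5 genes held without each single library (adjusted p up to 0.0491). Wbp1, also among the 12 largest rises, is of uncertain counting and is described among the other observations.

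Among 17 tested Sertoli cell markers, Amh was the 1 that was called, and the list's median was -0.20. A negative log2 fold change was found for 12 of the 17, and for 10 to 13 in 19 alternative settings. The median was negative in all 19. Of the 17 markers 5 were lower without overlap, where 14.2% of all genes tested were. Amh had 319, 294 and 224 CPM at day 7 and 458, 552 and 645 CPM at day 3. The groups did not overlap, and day 7 replicate 3 and day 3 replicate 3 were the extremes. The log2 fold change was -0.98 ± 0.16 (adjusted p = 0.0271), and the call was lost without any 1 of the day 7 libraries or day 3 replicates 1 or 2 (adjusted p up to 0.0838). Inha, the alpha subunit shared by inhibins, was also lower in every day 7 library but was not called, with 452, 430.3 and 347 CPM at day 7 and 541, 609 and 643 CPM at day 3 (log2 fold change -0.55 ± 0.12, adjusted p = 0.0553). Sox9, the transcription factor that specifies Sertoli cells, averaged 198 ± 22.4 CPM at day 7 and 185 ± 7.13 CPM at day 3 (adjusted p = 0.753). Fshr, the FSH receptor, averaged 24.6 ± 5.25 CPM at day 7 and 23.2 ± 5.85 CPM at day 3 (adjusted p = 0.906). Inhba and Inhbb, the beta subunits, were not called (adjusted p = 0.601 and 0.621). Gja1, the gap junction protein connexin 43 that Sertoli cells share with other cells, fell, with 159, 170.4 and 156 CPM at day 7 and 216, 227 and 207 CPM at day 3 (log2 fold change -0.42 ± 0.09, adjusted p = 0.0457). It was the 1 called gene of 22 for cell junctions, and the call was lost without any single library except day 3 replicate 3 (adjusted p up to 0.205).

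No Leydig cell or germ cell marker was called by limma. The 9 Leydig genes tested had a median of -0.24 and the 18 germ cell genes a median of -0.05. At an unadjusted p under 0.05 there were 3 Leydig and 2 germ cell genes, and DESeq2 called 1 of each where edgeR called 0. Over all 12348 genes tested, 1833 were under that unadjusted threshold in either direction. Star, which carries cholesterol into mitochondria for steroid synthesis, had 19.6, 15.5 and 16.8 CPM at day 7 and 16.3, 8.62 and 12.5 CPM at day 3 (adjusted p = 0.342). Cyp11a1, which makes pregnenolone, averaged 9.83 ± 2.43 CPM at day 7 and 12.1 ± 1.97 CPM at day 3 (adjusted p = 0.596). Insl3, a Leydig cell peptide hormone, was higher in each day 7 library but not called, with 49.6, 38.6 and 48.5 CPM at day 7 and 28.1, 27.9 and 36.8 CPM at day 3 (adjusted p = 0.101). Cyp17a1 and Lhcgr did not pass the filter. Ddx4, the germ cell helicase VASA, had 1.43, 1.39 and 2.59 CPM at day 7 and 0.830, 3.68 and 3.65 CPM at day 3 (adjusted p = 0.791). Dazl, a germ cell RNA-binding protein, had 4.88, 13.1 and 10.6 CPM at day 7 and 2.91, 9.29 and 9.78 CPM at day 3 (adjusted p = 0.782). Replicate 1 was the lowest library of its day for Dazl on both days, and both genes varied by more than their difference between the days.

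Markers of macrophages, endothelium, mesothelium and red blood cells gave 3 calls in all, each lower at day 7. Macrophage genes had a median of -0.63 over 8 genes, of which limma and edgeR called 0 and DESeq2 called 1 lower. At an unadjusted p under 0.05, 4 were lower, where 1833 of all 12348 genes tested passed in either direction. Cd163 was at 0 in all 6 libraries. The summed level of the macrophage genes was 28.8, 41.1 and 33.1 CPM at day 7 and 40.4, 55.8 and 75.9 CPM at day 3, so the groups overlapped slightly. Csf1r, the receptor that macrophages need to survive, had 2.98, 2.17 and 1.88 CPM at day 7 and 3.21, 5.23 and 6.08 CPM at day 3 (adjusted p = 0.137). Endothelial genes gave 1 call in 7. Cdh5, the cadherin of endothelial junctions, had 59.7, 69.3 and 43.4 CPM at day 7 and 110.1, 108 and 92.8 CPM at day 3 (log2 fold change -0.86 ± 0.16, adjusted p = 0.0358). The call was lost without day 7 replicate 1 or 3 or day 3 replicate 1 or 2 (adjusted p up to 0.170). The list's summed level was 126 to 136 CPM at day 7 and 158 to 195 CPM at day 3, but Cdh5 was a large part of it. Cdh5 was the 1 member of 7 that was lower without overlap, where 14.2% of all genes tested were. The gap between the sums thus does not show a fall of the other members. The list's median of -0.15 turned positive in 2 of the 19 alternative settings. Among 7 mesothelial genes, which mark the surface lining of the testis, Upk1b fell, with 5.68, 4.12 and 6.19 CPM at day 7 and 9.85, 9.36 and 11.9 CPM at day 3 (adjusted p = 0.0469, lost without any 1 library). Alas2, the erythroid enzyme of haem synthesis, had 10.4, 10.2 and 26.8 CPM at day 7 and 43.0, 40.9 and 52.7 CPM at day 3 (log2 fold change -1.60 ± 0.32, adjusted p = 0.0394). The call was lost without any single library except day 7 replicate 3 (adjusted p up to 0.167). Hbb, haemoglobin beta, was at 0 in all 6 libraries. In the fresh tissue Alas2 averaged 5.97 ± 1.96 CPM and Upk1b 0.733 ± 0.410 CPM, below the means of both culture days. Csf1r averaged 5.58 ± 1.20 CPM there, above both, and Cdh5 80.9 ± 10.2 CPM, between them (SD, n = 3 each). The part of a changing cell makeup in the other results was not tested.

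A few genes of innate defence and steroid or retinoid metabolism were called lower. C7, a terminal complement component, had 28.9, 46.7 and 20.0 CPM at day 7 and 74.1, 67.3 and 67.1 CPM at day 3 (log2 fold change -1.18 ± 0.25, adjusted p = 0.0464). Serping1, the inhibitor of complement C1, had 16.2, 22.4 and 21.1 CPM at day 7 and 40.6, 37.0 and 33.8 CPM at day 3 (-0.87 ± 0.15, adjusted p = 0.0274). They were the 2 called genes of 12 in the complement list, of which 9 had a negative log2 fold change. The list's median was -0.33 and was negative in all 19 alternative settings. RT1-A2, a class I histocompatibility gene, was called lower, but its family has near-identical copies among which reads may be divided. The call was lost without any single library except day 7 replicate 2 (adjusted p up to 0.188). RT1-A2 was the 1 called gene of 25 for interferon response and antigen presentation. In that list 17 genes had a negative log2 fold change, and the median of -0.23 was negative in all 19 alternative settings. Hsd11b2, which inactivates glucocorticoids, had 15.2, 12.9 and 11.4 CPM at day 7 and 27.9, 26.1 and 27.3 CPM at day 3 (adjusted p = 0.0158). Aldh1a2, which makes retinoic acid, averaged 2.02 ± 0.253 CPM at day 7 and 4.59 ± 0.157 CPM at day 3 (adjusted p = 0.0347). Each of the 4 named genes was lower in every day 7 library, and each call was lost without day 7 replicate 3 or day 3 replicate 1. Those of C7, Serping1 and Aldh1a2 were also lost without day 7 replicate 1 or day 3 replicate 2, those of C7 and Aldh1a2 without day 3 replicate 3, and that of Aldh1a2 without day 7 replicate 2 (adjusted p up to 0.187). Among the larger falls outside the lists, Cdh20, a cadherin, had 6.71, 5.07 and 6.49 CPM at day 7 and 24.1, 20.3 and 18.3 CPM at day 3 (-1.63 ± 0.16, adjusted p = 0.00300). This call held without each single library (adjusted p up to 0.0292). Pla1a, Ramp3, Cd24, S100a4, Svopl and Dnah17 fell with log2 fold changes of -1.501 to -1.32, and their calls were lost without day 3 replicate 1, among other libraries (adjusted p up to 0.191).

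Stress and housekeeping programmes gave few calls. None of 20 immediate early genes, 21 heat shock chaperones, 21 endoplasmic reticulum chaperones, 23 antioxidant genes, 28 glycolysis genes, 24 cholesterol genes, 42 nuclear respiratory chain genes or 47 ribosomal protein genes was called by limma. Of these 226 genes together, 8 were higher and 14 lower at an unadjusted p under 0.05, edgeR called 1 higher and DESeq2 5 higher. For comparison, 1833 of all 12348 genes tested had an unadjusted limma p under 0.05. Fos, an immediate early transcription factor, had 10.9, 6.63 and 7.76 CPM at day 7 and 7.36, 7.15 and 4.02 CPM at day 3 (adjusted p = 0.529). Hspa1b, an inducible heat shock protein, averaged 8.16 ± 2.74 CPM at day 7 and 6.70 ± 2.02 CPM at day 3 (adjusted p = 0.772). Of 25 genes of the amino acid stress response Vldlr, a lipoprotein receptor, was the 1 called (1.09 ± 0.20, adjusted p = 0.0332). Of 18 cell cycle inhibitors and p53 targets Ccng1, cyclin G1, was the 1 called, with 310.0, 356 and 370.3 CPM at day 7 and 223, 221 and 212 CPM at day 3 (0.65 ± 0.10, adjusted p = 0.0187). Both calls were lost without day 7 replicate 3 or day 3 replicate 1, and that of Vldlr also without day 7 replicate 2 (adjusted p up to 0.154). Cdkn1a, the inhibitor p21 of the same list, was not called (adjusted p = 0.210). In that list 15 of 18 genes had a positive log2 fold change (median 0.26), as had 22 of the 25 amino acid stress genes (median 0.16). Both medians were positive in all 19 alternative settings, and DESeq2 called 5 and 4 of these genes higher.

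For the called genes, day 5 mostly lay between the other culture days. The day 5 mean fell between the day 3 and day 7 means for 108 of the 120 genes called higher (90%) and for 188 of the 197 called lower (95.4%), against 31.8% of all genes tested, as a description of libraries that the calls did not use. Called genes have a wide gap between day 3 and day 7 by selection, so a day 5 mean falls inside it more easily. The shares are therefore no check of the calls. Eln averaged 263 ± 22.5 in tissue, 287 ± 144 at day 3, 499 ± 142 at day 5 and 1587 ± 476 CPM at day 7 (SD, n = 3 each). Its level thus stood near that of tissue at day 3 and above it afterwards. Col11a1 averaged 9.83 ± 1.31 in tissue, 46.0 ± 2.73 at day 3, 123.4 ± 39.8 at day 5 and 222 ± 31.3 CPM at day 7. Igf1 averaged 33.7 ± 2.03 in tissue, 31.4 ± 5.90 at day 3, 72.1 ± 17.6 at day 5 and 103 ± 15.2 CPM at day 7. Amh took another course, with 232 ± 20.8 in tissue, 551 ± 93.3 at day 3, 286 ± 89.8 at day 5 and 279 ± 49.2 CPM at day 7, so that day 3 was its highest point. Rrm2 had its highest mean in tissue, at 61.5 ± 1.09 CPM, followed by 42.1 ± 3.70 at day 3, 29.7 ± 1.48 at day 5 and 21.6 ± 2.05 CPM at day 7. Plk1 followed the same order, with 89.6 ± 2.91 in tissue, 60.2 ± 5.37 at day 3, 47.3 ± 4.66 at day 5 and 35.1 ± 2.58 CPM at day 7. Tgfbi had already reached its day 7 level by day 5, with 31.8 ± 1.39 in tissue, 49.2 ± 3.18 at day 3, 18.1 ± 3.81 at day 5 and 18.9 ± 1.15 CPM at day 7.

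**Figure D4:**
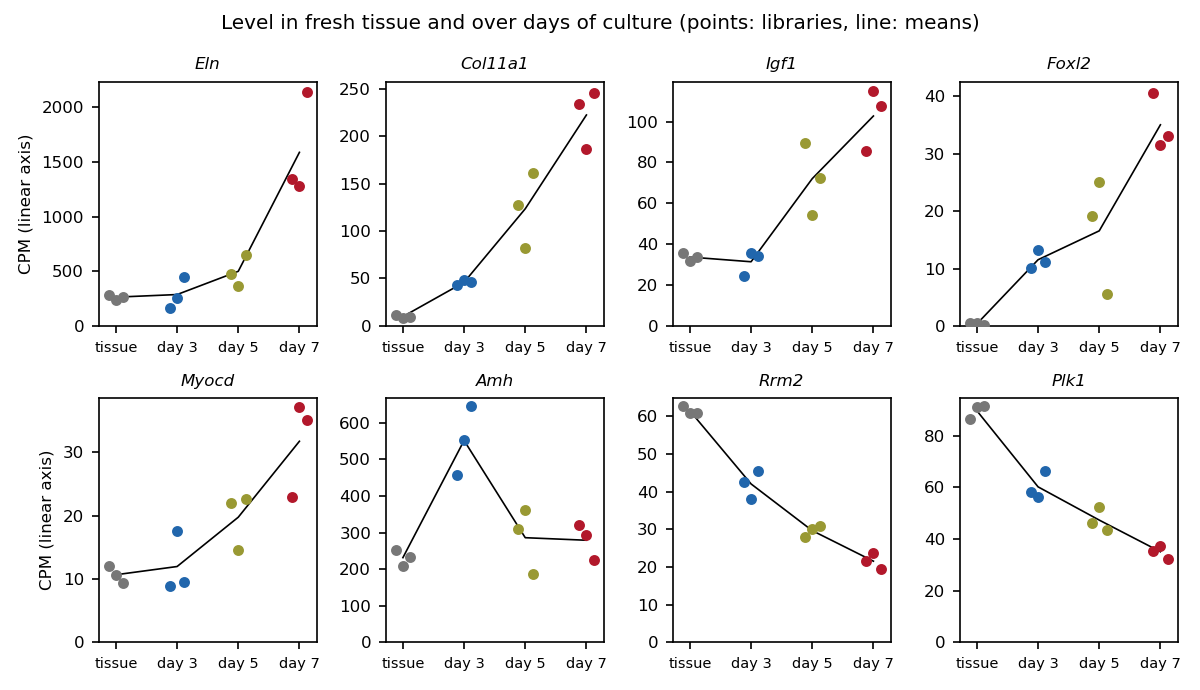
Level of 8 genes in CPM on linear axes in the freshly isolated tissue and at days 3, 5 and 7 of culture, with 1 point per library and a line through the means (n = 3 per group). Eln, Col11a1, Igf1, Foxl2 and Myocd are highest at day 7, Amh is highest at day 3, and Rrm2 and Plk1 are highest in tissue and lowest at day 7.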

How the data were processed

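Whole-testis cultures from 1 litter of rats were profiled with poly-A-selected, non-directional libraries, per the labels' protocols. Per the submitters' processing notes the aligner was STAR and the genome build mRatBN7.2, whereas the sources used here name neither the counting tool nor the annotation. The authors deposited CPM values, reads scaled to a common library total, for 21425 genes. All values of the 6 libraries were whole multiples of 1 read to within 0.01 read, so whole reads were recovered for count tests, and 3.07 to 3.68% of each library lay outside the listed genes.

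Genes with at least 1 CPM in at least 3 of the 6 libraries were kept, which left 12348. They were fitted on log2(CPM + 1) with limma 3.58.1 in R 4.3.3, with day as the only term and an empirical Bayes trend. Tests were two-sided, with Benjamini-Hochberg adjustment over all 12348 genes and a threshold of 0.05. Genes were named by a rule: the 12 largest rises and falls among called genes whose groups did not overlap and whose higher group averaged 5 CPM or more, up to 4 called members of each list in its main direction and 2 in the other, and a panel of cell type genes. Counts and medians describe the 47 lists, without a set test. The members and lists were chosen with earlier results of these data known. Of 1066 list entries 867 were tested. On data simulated for this comparison over 12261 genes, 91% of 2-fold and 100% of 4-fold changes were recovered, with 14 false among 205 calls. The changes were placed in genes averaging at least 5 CPM, and counts were drawn independently, with no library set apart. The shares recovered thus do not cover genes of lower level or libraries that shift as a whole, as the real ones did. The alternatives included edgeR 4.0.16 and DESeq2 1.42.0 on the recovered reads. Promoter windows are from RefSeq on GRCr8, and the aligned build differs. Some genes that the rule would name are not reported here.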

Additional observations from a re-analysis of the deposited data

How the results depend on the processing

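Of 20 alternatives, 19 were planned and 1, scaling without mitochondrial reads, was chosen after seeing the data; it gave 120 genes higher and 194 lower. No named gene reversed direction while called. For 2 lists the single call changed direction with the member called: cell junctions had 1 lower by limma and 1 higher by edgeR, and mesothelial genes had 1 lower with all 6 libraries and 1 higher without day 7 replicate 2. Without a filter on low values, which raised the genes tested to 17091, 42 were higher and 52 lower. TMM rescaling gave 132 higher and 120 lower and equal library medians 137 and 108, so the higher share of calls moved to 52.4% and 55.9% against 37.9%. edgeR gave 141 higher with 122 lower and DESeq2 391 and 366. A fit to the 12 baseline libraries gave 176 and 329, one to the 9 culture libraries 95 and 155, and one without a variance trend 82 and 138. Leaving out 1 library gave 19 to 132 genes higher and 8 to 166 lower. The cause of these moves was not tested.

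Samples of the 2 days share replicate numbers. Their deviations from the day means correlated at 0.0587, 0.335 and -0.0135 across genes, so the numbers were not taken to pair the cultures. With a replicate block 166 genes were higher and 189 lower. The library names carry other numbers, whose meaning is not stated and of which 2 are shared between days, with pair correlations of 0.0587 and 0.109. A replicate block by them gave 666 and 1178, and 8 named genes gained a call, among them Mki67 and Inha lower and Acta2, Star and Insl3 higher. That fit drew the day difference from the 2 shared pairs alone. Day 7 replicate 2 and day 3 replicate 3, whose numbers are not shared, did not inform it. Its calls are thus not comparable with those of the main fit.

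Depth gave at least 17.4 M reads a library, and the chi-square per gene between replicates was 14.1 to 59.2, where counting error alone gives about 1, so technical spread and 3 libraries per day set the precision, and 1 litter cannot show variation between animals.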

Other observations

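Foxl2, chosen after its values were seen, encodes the transcription factor that maintains the granulosa cell fate in the ovary. It had 40.6, 31.5 and 33.1 CPM at day 7 and 10.1, 13.3 and 11.2 CPM at day 3, which is 1.52 ± 0.15 on the log2 scale (adjusted p = 0.00300). Its mean was 0.358 ± 0.199 CPM in the tissue libraries and 16.6 ± 10.0 CPM at day 5 (SD, n = 3 each). Myocd, the coactivator of smooth muscle genes, also chosen after its values were seen, had 22.9, 37.1 and 35.1 CPM at day 7 and 8.87, 17.5 and 9.52 CPM at day 3 (1.37 ± 0.26, adjusted p = 0.0370). Piezo2, a stretch-activated channel chosen in the same way, had 36.1, 28.4 and 57.3 CPM at day 7 and 10.0, 11.5 and 9.89 CPM at day 3 (1.80 ± 0.23, adjusted p = 0.0106). Ccnd1, cyclin D1, also chosen after its values were seen, had 47.0, 36.9 and 34.1 CPM at day 7 and 62.6, 61.7 and 71.4 CPM at day 3 (-0.73 ± 0.14, adjusted p = 0.0347). None of these 4 genes had overlapping groups. No values without single libraries are given for them, so their calls may be no firmer than those of the other named genes.

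Rlim, an X-linked ubiquitin ligase, had the largest fall by fold, with 0.115, 0.217 and 0.101 CPM at day 7 and 13.9, 10.8 and 12.6 CPM at day 3 (-3.55 ± 0.18, adjusted p = 5.94e-05). Its mean was 0.182 ± 0.0822 CPM in tissue and 0.104 ± 0.0845 CPM at day 5, so the day 3 libraries stood alone in the baseline, whereas the induction libraries before hormone had 66.1, 67.6 and 68.4 CPM. Wbp1 had 12.6, 12.6 and 3.35 CPM at day 7 and 0.453, 1.40 and 0.582 CPM at day 3 (2.39 ± 0.43, adjusted p = 0.0328, lost without day 7 replicate 1 or 2 or day 3 replicate 1), against 36.8, 43.7 and 37.4 CPM before hormone. Tma7, not called, had 32.9, 0.997 and 32.4 CPM at day 7 and 0.792, 1.88 and 2.17 CPM at day 3, against 53.03, 47.6 and 50.1 CPM before hormone. The counting of these 3 genes is uncertain, and the cause was not tested.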
